A study of Mus musculus with 16 samples.

Results

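Mouse embryonic stem (ES) cells kept in 2i/LIF were compared with cells of the same culture condition 40 h after 2i and LIF had been withdrawn, and every expressed gene was followed between these 2 times. The comparison used 4 of the 16 RNA sequencing libraries of the study, 2 at 0 h and 2 at 40 h, and covered the 14288 genes that passed a filter on low counts, out of 27179 in the table. At 0 h the cells grew without serum in DMEM/F-12 and Neurobasal with N-2 and B-27 supplements, LIF, and the 2 inhibitors that give 2i its name, CHIR99021 against GSK3 and PD0325901 against MEK. For the 40 h libraries the cells were washed and then held in serum-free medium lacking both inhibitors and LIF. The cells came from serum and LIF cultures on gelatin-coated plates and had been adapted to 2i/LIF over several passages. The ES cell line and the number of clones behind the cultures are not given in the sources used here, and nothing says that the libraries of a group came from separate cultures, so the p-values measure only the spread between these libraries, which may be technical. The remaining libraries, 12 and 24 h after the same change of medium and 0 to 40 h after exit from serum/LIF+2i (knockout DMEM with fetal bovine serum, LIF and 2i) into a serum-free mix of glutamine-free DMEM and Neurobasal with glutamine added, entered the model to estimate the spread and are quoted where they bear on a gene described here.

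ES cells in 2i/LIF represent the naive state of pluripotency, the state of the epiblast of the blastocyst before implantation. CHIR99021 stabilises β-catenin and so relieves TCF7L1 repression of naive genes, PD0325901 blocks the FGF-MEK-ERK cascade that drives differentiation, and LIF acts through JAK and STAT3 to sustain naive transcription factors. When these are removed the naive network is dismantled, and cells pass through a formative state, related to the epiblast just after implantation, in which Otx2, Pou3f1, Fgf5 and the de novo DNA methyltransferases are characteristic genes and from which cells can respond to germ-layer signals.

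The 4 libraries held 5931381 and 6781483 counts at 0 h and 7858428 and 7173358 counts at 40 h, and a gene is called here when edgeR's quasi-likelihood test gave a Benjamini-Hochberg adjusted p under 0.05 over all tested genes. Levels are in CPM, the count scaled to library size with TMM factors. Changes are log2 fold changes, 40 h over 0 h. The value after ± (SE) is the size of the change divided by the square root of the test's F statistic. It is not the standard error of the fitted change and can be too small for large changes at few counts. Of the 14288 genes, 9837 (68.8%) were called: 4875 (34.1%) were higher at 40 h and 4962 (34.7%) were lower. A stricter test against a 2-fold change called 1574 genes higher (11.0%) and 1461 lower (10.2%). These 2 shares are the background for the class counts beyond 2-fold below, and 34.1% and 34.7% for those of the plain test. With only genes of at least 5 CPM on average the counts were 829 and 964, and DESeq2's test against 2-fold called 1008 higher and 1037 lower. The median change over all tested genes was 0.0052. The ES cell identity of the cultures was checked with 5 markers: Pou5f1 was at 641 and 641 CPM at 0 h and 635 and 635 CPM at 40 h, while Utf1 and Lin28a were higher and Sox2 and Sall4 lower, and the 5 summed to 1398 and 1448 CPM at 0 h and 2267 and 2181 CPM at 40 h. In bulk RNA, fewer cells of a type and less RNA per cell cannot be told apart.

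**Figure D1:**
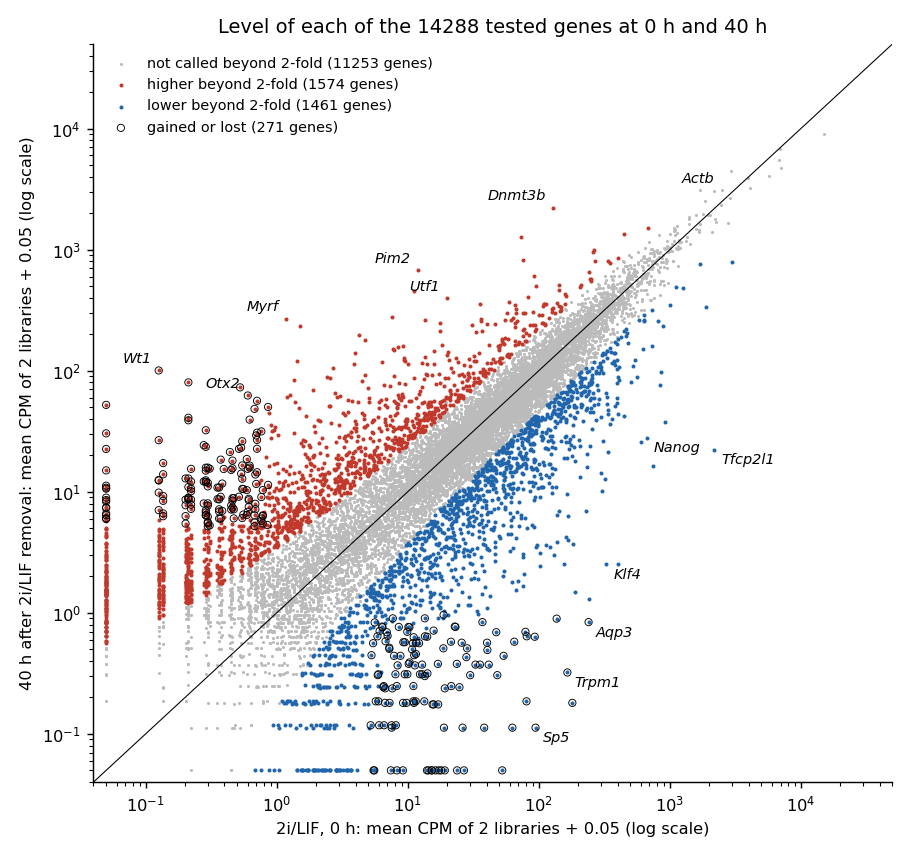
Each point is 1 of 14288 tested genes, with its mean over 2 libraries at 0 h on the x axis and at 40 h on the y axis, both as CPM + 0.05 on log scales. Red and blue points are the 1574 genes higher and 1461 genes lower beyond 2-fold, circles mark the 271 genes gained or lost by the rule given in the text, and the line marks equal levels.

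The steepest rises, among genes seen at both times and reaching 20 CPM, were found in genes of varied function. Myrf, a membrane-anchored transcription factor best known from myelinating glia, had 1.03 and 1.22 CPM at 0 h and 269.5 and 269 CPM at 40 h, a log2 fold change of 7.88 ± 0.12 (adjusted p = 2.0e-91). Pou3f1, a POU factor of the formative epiblast also called Oct6, had 1.38 and 1.52 CPM at 0 h and 253 and 212 CPM at 40 h (7.31 ± 0.18, adjusted p = 2.7e-24). For both genes, the lower library at 40 h was far above the higher one at 0 h. Jph4, a junctophilin that joins plasma membrane and endoplasmic reticulum, rose from 0.476 to 72.8 CPM and Pcdh1, a protocadherin, from 1.38 to 119.7 CPM. Esrp1, an epithelial splicing regulator, rose from 1.30 to 84.0 CPM and the chemokine gene Cxcl12 from 0.659 to 56.4 CPM. The noncoding RNA Miat, the intermediate filament gene Prph, the zinc finger factor Zfp423, the kinase gene Pim2, the ERK inhibitor Spry4 and the homeobox factor Otx2 completed the 12 largest rises, which ran from a log2 fold change of 5.77 for Spry4 to 7.88 for Myrf.

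The 12 steepest falls held 5 members of the naive pluripotency list, 4 of them transcription factors. Klf4, a Krüppel-like factor downstream of LIF, had 323 and 333 CPM at 0 h and 2.76 and 2.17 CPM at 40 h (-7.04 ± 0.10, adjusted p = 2.2e-94). Tbx3, a T-box factor, fell from 189.8 to 1.44 CPM, Prdm14, a repressor of FGF signalling and of DNA methylation genes, from 93.2 to 0.585 CPM, and Tfcp2l1 from 2182 to 22.1 CPM. Jam2, a junctional adhesion molecule counted here with the naive genes, fell from 403 to 2.46 CPM. Trpm1, a cation channel, had 170.4 and 160.3 CPM at 0 h and 0 and 0.544 CPM at 40 h, so 1 of the 2 libraries at 40 h was at 0. The Trpm1 locus also holds the microRNA gene Mir211, and whether reads were counted by strand is not given in the sources used here, so overlapping genes cannot be separated. Aqp3, a channel for water and glycerol, had 241 and 239 CPM at 0 h and 0.626 and 0.951 CPM at 40 h (-8.23 ± 0.14, adjusted p = 6.4e-86). The small GTPase gene Mras fell from 80.9 to 0.590 CPM, the oocyte and early embryo gene Khdc3 from 65.0 to 0.528 CPM and the LIF-family cytokine gene Osm from 40.5 to 0.444 CPM. AA467197, whose locus overlaps Mir147, fell by 6.22 on the log2 scale.

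Per unit of gene length, the largest gains and losses were in other genes, several of them abundant transcripts with a small fold change. In RPKM, the count scaled to library size and gene length, the β-actin gene Actb went from 1324 to 1648 RPKM, the pyruvate kinase gene Pkm from 659.7 to 1189 RPKM, the ferritin heavy chain gene Fth1 from 465 to 984 RPKM and Dnmt3b from 29.8 to 514 RPKM. The largest losses were in the elongation factor gene Eef1a1, from 3789 to 3083 RPKM, the metallothionein genes Mt2 (1739.7 to 962 RPKM) and Mt1 (1173 to 582 RPKM), and Dppa5a, an RNA-binding protein gene of ES cells, from 2648 to 1194 RPKM. Apoe, Spp1 (osteopontin), Nanog and the creatine kinase gene Ckb followed, and Ckb fell from 504 to 11.0 RPKM. Eef1a1 and Actb changed by only -0.30 and 0.32 on the log2 scale, both past the plain test and neither past the test against 2-fold. The short snoRNA gene AF357359, inside Rian, also ranked among the gains, and its length-scaled value rests on 46 and 62 counts at 0 h and 190 and 200 counts at 40 h.

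A stricter view took genes that crossed from under 1 CPM in both libraries of one time to at least 5 CPM in both libraries of the other. By this rule 147 genes (1.03% of those tested) were gained and 124 (0.868%) were lost. The numbers rest on the chosen levels: with under 0.5 and at least 10 CPM they were 34 and 39, and with under 2 and at least 5 CPM 303 and 234. Of the gained genes, 93 had at most 3 counts in each library at 0 h, and of the lost genes 71 had at most 3 counts in each at 40 h. Gained genes reached a median of 10.1 CPM at 40 h, and lost genes came down from a median of 11.9 CPM. Of these, 34 gained and 30 lost genes belong to a functional class listed for this comparison, and the remainder lie outside the lists.

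Wt1, a zinc finger factor of kidney and gonad development, was gained with 0 and 0.152 CPM at 0 h and 99.4 and 102 CPM at 40 h, or 0 and 1 counts at 0 h and 794 and 747 counts at 40 h. Enpp2, which encodes the lysophospholipase autotaxin, had 0.172 and 0.152 CPM at 0 h and 85.3 and 74.9 CPM at 40 h. Car4, a membrane-bound carbonic anhydrase, had no count in either library at 0 h and 52.2 CPM at 40 h, at least 107-fold over the floor of 3 counts per library. Cthrc1, a secreted collagen triple helix repeat protein, also had no count at 0 h and was at least 62.4-fold higher by the same floor. Otx2 had 0.345 and 0.759 CPM at 0 h and 64.8 and 60.1 CPM at 40 h (6.75 ± 0.22, adjusted p = 3.0e-56), and 7.44 without replicate 2 at 0 h, where the 2 libraries held 2 and 5 counts. Among signalling genes, the Notch ligand gene Dll1 reached 40.8 CPM, Fgf5 17.2 CPM, Wnt8a 15.8 CPM and the retinoid receptor gene Rxrg 10.8 CPM. Rxrg had no count at 0 h and was at least 22.1-fold higher. Genes of neurons and of the synapse were also among those gained: Kif1a, a kinesin of axonal transport, reached 31.5 CPM, the synaptic vesicle gene Sv2a 29.2 CPM, and the RNA-binding protein gene Elavl3 10.5 CPM. Eras, a Ras-like gene first known from ES cells, was gained at 15.8 CPM. Mir363 was counted at 4 and 4 counts at 0 h and 87 and 90 counts at 40 h, which are reads over the hairpin gene in a poly(A) library and no measure of the mature microRNA.

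Besides Aqp3 and Trpm1, the lost genes included targets of Wnt signalling. Cdx1, a caudal homeobox factor and Wnt target, had 1063 and 1170 counts at 0 h and 1 and 1 counts at 40 h. Sp5, a zinc finger factor that responds directly to β-catenin, had 536 and 636 counts at 0 h and 1 and 0 counts at 40 h. Tnni1, a troponin, had 54.3 and 53.5 CPM at 0 h and 0.376 and 0.408 CPM at 40 h. Pglyrp1, a secreted peptidoglycan recognition protein, had 47.2 and 49.2 CPM at 0 h and 0.376 and 0.136 CPM at 40 h. The interferon-induced gene Xaf1 had 312 and 338 counts at 0 h and 0 and 0 counts at 40 h, a fall of at least 134-fold by the floor. Dmgdh, Bhmt and Bhmt2, which encode mitochondrial and cytosolic enzymes of one-carbon metabolism, were lost together. Bhmt2 went from 23.8 CPM and Bhmt from 15.3 CPM to no count, and Dmgdh from 80.6 to 0.136 CPM. Histidine ammonia-lyase (Hal), the entry enzyme of histidine breakdown, and 4 serpins of clade B (Serpinb1a, Serpinb6c, Serpinb9 and Serpinb9b) were also lost, with Hal at 16.9 CPM and Serpinb9b at 19.14 CPM at 0 h. T, the brachyury gene of the primitive streak, had 174 and 171 counts at 0 h and 5 and 1 counts at 40 h.

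**Figure D2:**
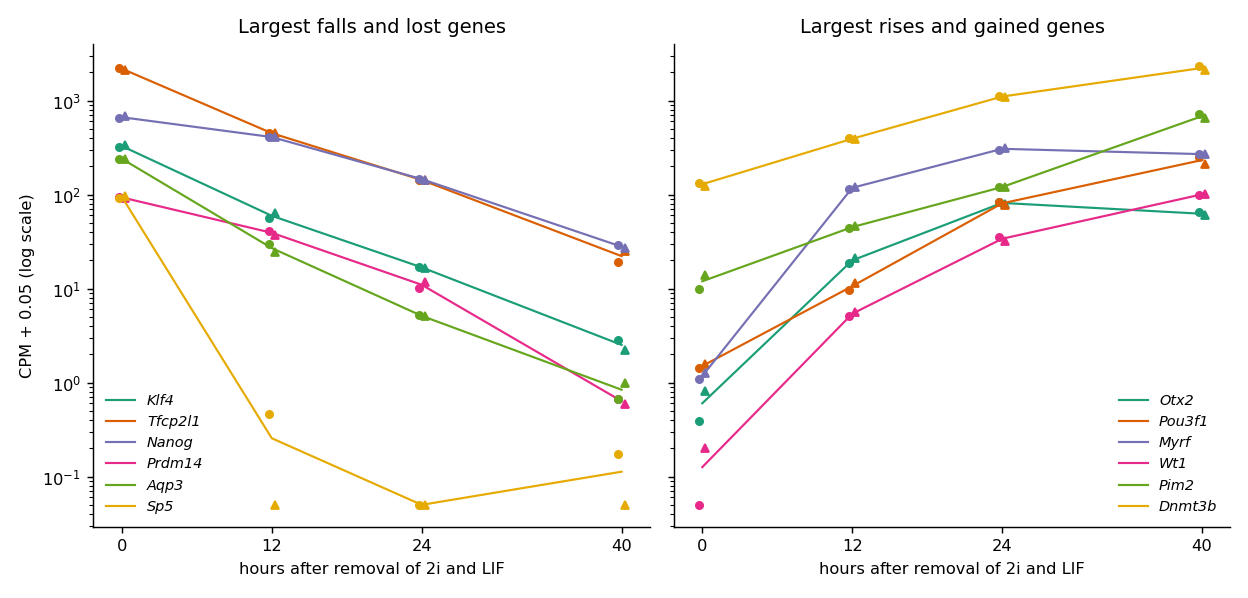
CPM + 0.05 on a log scale at 0, 12, 24 and 40 h for 6 genes that fell (left) and 6 that rose (right); circles are replicate 1, triangles replicate 2 and lines join the means of 2 libraries. Sp5 was near 0 in both libraries by 12 h, whereas Nanog passed through 409 CPM at 12 h and 146 CPM at 24 h.

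The order in which genes moved differed, as the plot of 12 genes over time shows. Sp5 was down to 0.206 CPM at 12 h and 0 CPM at 24 h and Trpm1 to 11.7 CPM at 12 h and 1.28 CPM at 24 h. Nanog still had 409 CPM at 12 h and 146 CPM at 24 h, and Jam2 250.3 CPM at 12 h and 81.1 CPM at 24 h. Among genes that rose, Myrf had 118 CPM at 12 h and 307 CPM at 24 h, beside 269 CPM at 40 h. Otx2 had 19.9 CPM at 12 h and 81.4 CPM at 24 h, and Wt1 5.34 CPM at 12 h and 33.8 CPM at 24 h. Prph and Miat were late: Prph had 0.816 CPM at 12 h and 4.34 CPM at 24 h before 39.4 CPM at 40 h. Miat had 0.677 CPM at 12 h and 2.49 CPM at 24 h before 48.4 CPM at 40 h.

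Promoters of the switched genes were read from RefSeq (GRCm38.p6), 250 bases before to 50 bases after each start, for 106 of 147 gained and 88 of 124 lost genes. In all, 11 words were searched, each on both strands. The TCF/LEF word CTTTGAT stood in 7.95% of lost genes, 1.89% of gained genes and 3.08% of all 10940 tested genes with a promoter. The STAT word TTCNNNGAA, which reads alike on both strands, stood in 13.6% of lost genes, 3.77% of gained genes and 8.03% of all. For the octamer ATGCAAAT, which POU factors bind, the order was turned round, with 4.72% of gained genes, 2.27% of lost genes and 1.66% of all. Other words were rarer in lost genes than in all: the KLF word GGGTGTGG stood in 1.14% and 4.61%, the E-box CACGTG in 7.95% and 11.8%, and the E2F word TCCCGC in 19.3% and 39.8%. The ETS word CCGGAAGT and the CRE word TGACGTCA were in none of the 88 lost genes, which allows up to 3.41%, beside 8.69% and 3.59% of all. The same held for the amino acid response word TGATGNAAT, in 0.576% of all. The AP-1 word TGACTCA (4.55% and 4.27%) and the ESRRB word TCAAGGTCA (1.14%, a single gene, and 0.320%) completed the search. Gained genes were also below all genes for the KLF word (1.89%), the E-box (6.6%) and the ETS word (1.89%). They held the E2F word in 34.9% and the CRE word in 3.77%. The ETS word was likewise rarer in the genes higher and lower beyond 2-fold, at 2.29% and 2.83%. In the larger set of genes lower beyond 2-fold the TCF/LEF and STAT shares lay nearer to those of all genes, at 3.93% and 8.68%. The counts behind them are small, 7 and 12 lost genes and 5 gained genes for the highest shares, and they were not tested. Promoters rich in CpG (observed over expected of at least 0.6) made up 38.6% of lost genes, 63.2% of gained genes and 74.3% of all. The upstream 250 bases of 4 switched genes show such words in capitals, on the strand of the gene and ending at the base before the start. Sp5 (chr2:70474673-70474922, plus strand) is shown for TCF/LEF among lost genes and Bcl6 (chr16:23981284-23981533, minus strand) because it holds 3 STAT words. Cxcl12 (chr6:117168285-117168534, plus strand) and Gadd45g (chr13:51846425-51846674, plus strand) are gained genes with a TCF/LEF word and an octamer.
Sp5 promoter: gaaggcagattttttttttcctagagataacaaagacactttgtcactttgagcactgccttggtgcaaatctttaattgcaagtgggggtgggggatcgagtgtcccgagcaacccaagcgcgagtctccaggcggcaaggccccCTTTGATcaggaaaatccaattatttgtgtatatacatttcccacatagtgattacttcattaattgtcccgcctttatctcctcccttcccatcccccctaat
Bcl6 promoter: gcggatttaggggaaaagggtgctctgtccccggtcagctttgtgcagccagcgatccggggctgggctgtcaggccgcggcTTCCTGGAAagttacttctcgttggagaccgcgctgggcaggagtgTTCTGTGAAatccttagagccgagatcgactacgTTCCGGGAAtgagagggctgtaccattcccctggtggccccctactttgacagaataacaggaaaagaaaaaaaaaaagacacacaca
Cxcl12 promoter: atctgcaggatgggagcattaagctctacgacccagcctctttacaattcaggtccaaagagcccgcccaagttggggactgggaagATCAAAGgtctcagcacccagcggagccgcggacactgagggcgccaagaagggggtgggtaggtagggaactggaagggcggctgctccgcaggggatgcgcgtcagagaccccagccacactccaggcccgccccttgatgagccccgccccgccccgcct
Gadd45g promoter: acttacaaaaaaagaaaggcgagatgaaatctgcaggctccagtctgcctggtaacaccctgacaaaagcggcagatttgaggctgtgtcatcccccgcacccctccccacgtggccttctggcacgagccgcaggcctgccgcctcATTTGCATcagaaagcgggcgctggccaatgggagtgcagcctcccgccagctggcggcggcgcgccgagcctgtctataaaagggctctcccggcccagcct
In Sp5 the word reads in the direction of the gene, and in Cxcl12 and Gadd45g it stands as its reverse complement. Bcl6, a transcriptional repressor, had 6.20 and 7.75 CPM at 0 h and 0.376 and 0.815 CPM at 40 h. Gadd45g, a growth arrest gene, had 0.172 and 0.304 CPM at 0 h and 33.7 and 30.7 CPM at 40 h. By the rule for gained and lost genes the 2 times cannot overlap for either gene, so their separation is no result of its own. A match of letters is a description of the sequence and was not tied to binding in these data.

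Among the pluripotency regulators, the naive and formative lists moved in opposite directions and the core list stayed between them. Of 20 naive factors, 16 fell beyond 2-fold and none rose beyond it, with a median change of -3.85. Of 17 formative and primed factors, 16 rose beyond 2-fold and none fell, with a median of 3.72. Both lists are textbook markers of this transition, so their direction was known beforehand. Nanog, a homeobox factor at the centre of the naive network, had 650.2 and 679.7 CPM at 0 h and 29.1 and 26.6 CPM at 40 h (-4.58 ± 0.054, adjusted p = 3.4e-103). The orphan nuclear receptor gene Esrrb had 912 and 919 CPM at 0 h and 39.6 and 35.2 CPM at 40 h (-4.61 ± 0.05). Spic, an ETS-family factor, had 58 and 123 counts at 0 h and 0 and 0 counts at 40 h, at least 36.6-fold lower. The 4 naive-list genes that did not fall beyond 2-fold were Mybl2 (-0.69 ± 0.045), Fgf4 (-0.52 ± 0.044), Gbx2 (0.20 ± 0.089) and Tcea3 (0.34 ± 0.091). Leaving out 1 library ended the calls of Gbx2 (adjusted p = 0.070, 0.19 and 0.18 in edgeR without replicate 1 or 2 at 0 h or replicate 2 at 40 h) and of Tcea3 (adjusted p = 0.10 without replicate 1 at 0 h). On the formative side, Pim2 had 9.82 and 14.0 CPM at 0 h and 718 and 647 CPM at 40 h (5.83 ± 0.072, adjusted p = 1.6e-86). Sall2, a zinc finger factor, had 8.62 and 9.87 CPM at 0 h and 129 and 115 CPM at 40 h (3.72 ± 0.11). The forkhead gene Foxp1 rose from 8.41 to 157 CPM. In the core list of 15, Pou5f1 changed by -0.013 ± 0.035 and was not called, and the sign of this value turns with the scaling. Sox2 had 344 and 372 CPM at 0 h and 142 and 141 CPM at 40 h (-1.34 ± 0.048), a fall in both libraries. Utf1, a chromatin-bound factor of pluripotent cells, had 20.5 and 19.4 CPM at 0 h and 415 and 385 CPM at 40 h (4.33 ± 0.077). Lin28a, an RNA-binding inhibitor of let-7 maturation, rose from 76.1 to 815 CPM, and its paralog Lin28b from 7.79 to 91.1 CPM.

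The 3 pathways acted on by 2i and LIF were represented by their feedback genes and targets. Of 22 ERK feedback and immediate targets, 11 rose and none fell beyond 2-fold (median 1.19). Dusp6, a phosphatase that removes ERK activation, had 8.27 and 7.14 CPM at 0 h and 144 and 156 CPM at 40 h (4.29 ± 0.10, adjusted p = 2.8e-70). Dusp4, a related phosphatase gene, rose from 1.33 to 55.1 CPM, the Sprouty gene Spry4 from 0.821 to 44.8 CPM and the ETS factor gene Etv4 from 13.2 to 85.6 CPM. In each of these genes both libraries at 40 h lay above both at 0 h, as they did in 41.7% of all tested genes. Wnt targets were lower: 7 of 15 fell and 2 rose beyond 2-fold. Axin2, the standard reporter of β-catenin activity, had 227 and 229 CPM at 0 h and 7.26 and 6.52 CPM at 40 h (-5.04 ± 0.093, adjusted p = 6.8e-82). Notum, an extracellular Wnt deacylase, fell from 167 to 6.24 CPM. Nkd2, an inhibitor that binds Dishevelled, and Prickle1, a planar polarity gene, were the risers, Nkd2 from 0.410 to 7.37 CPM and Prickle1 from 3.03 to 12.7 CPM. In the LIF and STAT3 list, 6 of 17 fell and 1 rose. Stat3 had 187 and 169.8 CPM at 0 h and 19.5 and 20.1 CPM at 40 h (-3.17 ± 0.08). Socs3, its feedback inhibitor, fell from 58.0 to 4.43 CPM, Bcl3 from 67.4 to 1.499 CPM, and the shared receptor subunit gene Il6st from 186 to 41.3 CPM. Cntfr, the ciliary neurotrophic factor receptor that pairs with the same subunits, was the riser, with 1.55 and 0.759 CPM at 0 h and 56.1 and 64.8 CPM at 40 h (5.72 ± 0.19).

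Receptors and ligands of other pathways changed in both directions within families. Among FGF genes, Fgf5 (1 and 0 counts at 0 h and 160 and 106 counts at 40 h) and Fgf15 (0 and 0.456 CPM at 0 h and 12.3 and 11.96 CPM at 40 h) rose, Fgf10 fell from 3.91 to 0.193 CPM, and the receptor gene Fgfr2 rose from 1.53 to 23.9 CPM while Fgfr1, another receptor gene, went from 105 to 152 CPM (0.54 ± 0.056). Of 24 Wnt ligands and receptors, 9 rose and 6 fell beyond 2-fold: the Frizzled receptor gene Fzd10 fell from 168 to 3.94 CPM and Fzd5 from 146 to 38.5 CPM, and Fzd7 rose from 36.1 to 269 CPM and Fzd2 from 8.32 to 62.7 CPM. Notch genes divided the same way, with 8 of 20 higher and 4 lower. The ligand gene Dll1 had 0.172 and 0.152 CPM at 0 h and 43.3 and 38.3 CPM at 40 h, Jag1 fell from 44.3 to 13.2 CPM, and of the target genes Hes6 rose from 9.07 to 63.7 CPM and Hes1 fell from 51.9 to 7.96 CPM. In the Nodal and activin list, 7 of 22 fell and 3 rose. The convertase gene Pcsk6 fell from 119 to 16.8 CPM, the inhibitor gene Lefty2 from 69.3 to 16.3 CPM and follistatin (Fst) from 54.1 to 10.1 CPM, whereas Skil, a SMAD corepressor, rose from 59.3 to 373 CPM and Lefty1 from 24.2 to 59.9 CPM. In retinoic acid genes, Crabp2, a carrier protein, rose from 2.02 to 39.4 CPM and the receptor gene Rarg from 66.6 to 323 CPM, and the synthesis enzymes Aldh1a2 and Aldh1a3 fell, Aldh1a2 from 19.11 to 3.10 CPM. Hedgehog genes had 4 of 11 higher beyond 2-fold, among them Smo, the signal transducer, from 16.3 to 77.9 CPM and Gli1, whose locus overlaps Arhgap9, from 3.46 to 16.7 CPM. Gli2 fell from 157 to 54.2 CPM.

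Lineage regulators were mostly low or lower at 40 h. Only 7 of 19 primitive streak and mesendoderm regulators passed the filter, and 5 of these fell beyond 2-fold: T, Cdx2, Gsc, Kdr and Hhex. None rose. Cdx2, a caudal factor of trophoblast and posterior mesoderm, had 11.0 and 11.1 CPM at 0 h and 0.751 and 0.408 CPM at 40 h. Gsc, the organizer factor goosecoid, had 16 and 15 counts at 0 h and 0 and 0 counts at 40 h. Kdr, a receptor of vascular progenitors, had 3.79 and 4.10 CPM at 0 h and 0.250 and 0.408 CPM at 40 h, and Hhex, an anterior endoderm factor, 10.2 and 13.2 CPM at 0 h and 3.63 and 4.62 CPM at 40 h. The median of the tested members was -3.54, or -2.68 with genes at the floor placed at their bound, and -1.73 without replicate 2 at 40 h. Of 39 Hox genes, 17 were tested, 8 fell and 2 rose beyond 2-fold. Hoxc13 fell from 17.7 to 1.05 CPM. Hoxc12 had 54 and 47 counts at 0 h and 0 and 0 counts at 40 h, and the riser Hoxb1 0 and 1 counts at 0 h and 13 and 37 counts at 40 h. The median of the tested Hox genes was -1.64, and -3.14 in a fit of the 4 libraries alone, which keeps fewer genes. The neural list had 5 risers and 2 fallers of 12 tested. Sox1, an early neuroectoderm factor whose locus overlaps Sox1ot, had 0.862 and 0.456 CPM at 0 h and 19.3 and 26.0 CPM at 40 h (5.09 ± 0.29, adjusted p = 2.6e-33). Nes, the intermediate filament of neural progenitors, had 12.2 and 14.4 CPM at 0 h and 48.2 and 41.6 CPM at 40 h (1.75 ± 0.12). Pax6, which overlaps Elp4, reached 6.68 CPM. Sox21 fell from 11.2 to 1.64 CPM and Hesx1 from 3.51 to 0.580 CPM. Markers of other cell types were summed as a check. The 8 neuron markers summed to 257 and 260 CPM at 0 h and 162 and 178 CPM at 40 h, with none at the floor in all 4 libraries, 4 called higher and 1 lower; the faller, Stmn2, had 205 and 209 CPM at 0 h and 74.6 and 87.4 CPM at 40 h. The 6 mesoderm markers summed to 34.3 and 30.5 CPM at 0 h and 1.75 and 1.36 CPM at 40 h, with 3 at or under 3 counts throughout. The 8 trophoblast markers summed to 16.7 and 15.6 CPM and then 3.88 and 2.85 CPM (4 at or under 3 counts), and the 8 primitive endoderm markers to 6.72 and 6.22 CPM and then 12.3 and 14.7 CPM (2 at or under 3 counts). Most of the higher primitive endoderm sum was Dab2, from 1.03 and 1.21 CPM to 7.88 and 8.96 CPM. Cubn and Amn were called higher on few counts (at most 11 and 3 in a library), Pdgfra was called lower and Gata4 was not called. The 8 fibroblast markers summed to 17.4 and 16.4 CPM and then 23.5 and 16.4 CPM, with Dcn gained and 3 others at or under 3 counts. Within that list Thy1 also rose beyond 2-fold, while Pdgfrb fell from 13.4 and 12.3 CPM to 1.25 and 1.22 CPM. The part of such cells in the results was not tested.

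Germline genes leaned upward. Of 44 tested, 14 rose and 5 fell beyond 2-fold, with a median of 0.76 (0.63 with floor genes at their bound). Mael, a piRNA pathway gene, rose from 2.04 to 25.3 CPM and Meioc, a meiosis regulator, from 6.69 to 40.1 CPM. Dmc1, the meiotic recombinase, rose from 12.03 to 42.7 CPM. The fallers were the receptor kinase gene Kit (447 and 447 CPM at 0 h and 44.2 and 39.5 CPM at 40 h), Dazl (53.1 and 55.6 CPM at 0 h and 13.7 and 14.8 CPM at 40 h), the cohesin gene Rec8 (from 41.1 to 17.1 CPM), Nanos3 (from 6.52 to 0.199 CPM) and Prdm1 (from 17.0 to 5.09 CPM). Genes of the 2-cell-like state, which marks a rare subpopulation of ES cultures, had 15 of 17 tested members called higher (88.2%, against 34.1% of all genes). Beyond 2-fold 6 rose (35.3%, against 11.0% of all genes), and none was called lower. Counts were low: Zscan4d, the best known, had 12 and 7 counts at 0 h and 66 and 100 counts at 40 h. The median of the list was 1.70, or 1.45 with floor genes at their bound. Many members are near-identical copies between which reads can be split.

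**Figure D3:**
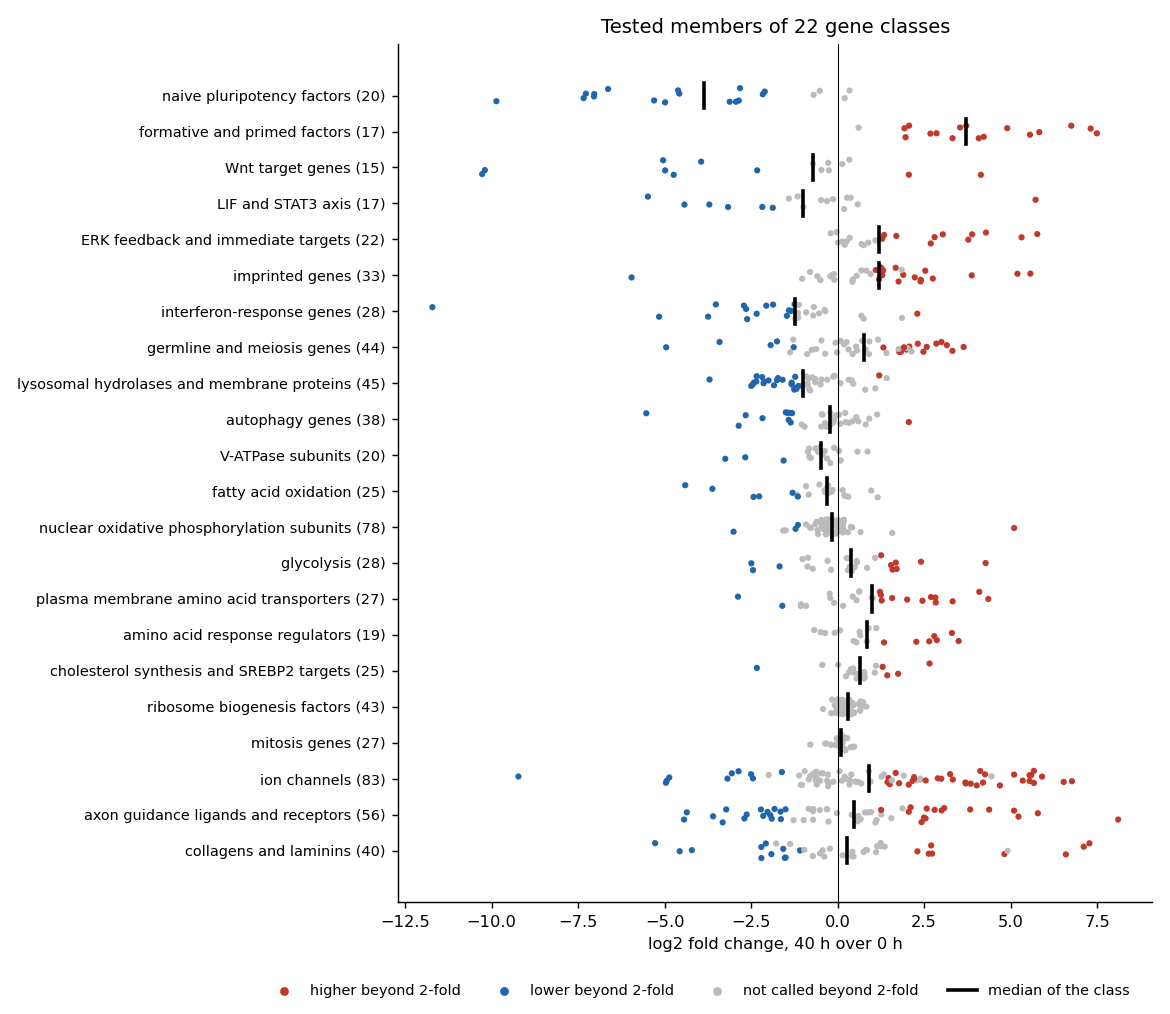
Log2 fold change, 40 h over 0 h, of the tested members of 22 gene classes (number tested in brackets). Each point is a gene, red or blue where it was higher or lower beyond 2-fold, and the bar is the class median, from -3.85 for naive factors to 3.72 for formative factors; genes at the floor in 1 group are shown at their fitted value, which is no bound.

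Genes for the writers, erasers and readers of DNA methylation moved in both directions. Dnmt3b had 134 and 123 CPM at 0 h and 2335 and 2108 CPM at 40 h (4.11 ± 0.045, adjusted p = 1.2e-84). Dnmt3a, which overlaps Dnmt3aos, rose from 72.7 to 1281 CPM, and Dnmt3l, their cofactor without catalytic activity, rose from 7.498 to 279 CPM. Tet3, a dioxygenase that oxidises methylcytosine, rose from 13.2 to 40.9 CPM and Tet2 fell from 241 to 68.2 CPM. Zfp57, which guards methylation at imprinting control regions, fell from 404 to 181 CPM, Mbd1 from 31.5 to 12.3 CPM and Zbtb38 from 36.4 to 13.6 CPM. Over the list of 18, 4 rose and 4 fell beyond 2-fold. Polycomb had 2 risers and 3 fallers of 33 (6.06% and 9.09%, beside 11.0% and 10.2% of all genes). Phc1 rose from 266 to 1003 CPM and Phf19 from 0.638 to 7.13 CPM. The fallers were the core subunit gene Suz12 (from 578 to 264 CPM), Cbx8 and Pcgf1. No member of the 19 trithorax and H3K4 enzymes passed the 2-fold test in either direction.

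Imprinted genes, which are expressed from 1 parental allele, were mostly higher at 40 h. Of 33 tested, 17 (51.5%, against 11.0% of all genes) were higher and 1 lower beyond 2-fold. They had a median of 1.19 (1.10 with floor genes at their bound; 1.07 to 1.22 over the 4 pairs of libraries). Mest, which overlaps Copg2 and Mir335, had 37.1 and 37.1 CPM at 0 h and 215 and 214 CPM at 40 h (2.53 ± 0.065, adjusted p = 2.1e-66). Peg10, a retrotransposon-derived gene, had 49.6 and 43.7 CPM at 0 h and 233 and 258 CPM at 40 h (2.40 ± 0.065). Meg3, a maternally expressed noncoding RNA whose locus overlaps Rtl1, rose from 209 to 510.1 CPM. The adaptor gene Grb10 rose from 95.3 to 505 CPM. H19, a maternally expressed noncoding RNA, had 1 and 0 counts at 0 h and 31 and 23 counts at 40 h. Dlk1, a Notch-like membrane protein gene, had 1 and 0 counts at 0 h and 39 and 31 counts at 40 h. Plagl1, a zinc finger factor, was the member that fell beyond 2-fold, with 155 and 154 CPM at 0 h and 2.38 and 2.58 CPM at 40 h (-5.95 ± 0.13, adjusted p = 4.7e-75).

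Genes of innate immunity and of antigen display parted company. Of 28 interferon-response genes tested, 14 (50%, against 10.2% of all genes) fell and 1 rose beyond 2-fold (median -1.23). Ifitm1 had 189 and 175 CPM at 0 h and 30.7 and 27.3 CPM at 40 h (-2.65 ± 0.074, adjusted p = 2.3e-60). Trim25, a ubiquitin ligase of RIG-I signalling, fell from 255 to 92.4 CPM and Irf9 from 34.9 to 5.33 CPM. The riser was Bst2 (tetherin), with 27.4 and 21.1 CPM at 0 h and 121 and 117 CPM at 40 h (2.30 ± 0.086). Of 11 antigen presentation genes, 4 rose and 2 fell beyond 2-fold. H2-K1, a class I heavy chain, had 14.5 and 13.7 CPM at 0 h and 86.5 and 97.0 CPM at 40 h (2.70 ± 0.10, adjusted p = 4.9e-48). H2-D1, another class I gene, rose from 5.52 to 21.6 CPM, the peptide transporter gene Tap1 from 1.77 to 8.41 CPM and the immunoproteasome gene Psmb10 from 10.9 to 28.1 CPM. The light chain gene B2m fell from 27.1 to 10.1 CPM and the loading chaperone gene Tapbp from 92.2 to 18.2 CPM; B2m overlaps Patl2 and Tapbp a gene model. Class I genes are a multigene family, and reads shared between H2 genes may have been divided among them.

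Genes of energy metabolism moved in both directions within glycolysis, and falls outnumbered rises in oxidative pathways. Of 28 glycolytic genes, 7 rose and 3 fell beyond 2-fold (median 0.38). Ldha, which reduces pyruvate to lactate, had 439.6 and 454 CPM at 0 h and 1395 and 1289.8 CPM at 40 h (1.59 ± 0.037, adjusted p = 1.2e-69). Slc16a3, a lactate exporter, rose from 13.6 to 263 CPM. Pdk1, the kinase that shuts pyruvate dehydrogenase, had 65.8 and 66.5 CPM at 0 h and 339 and 364 CPM at 40 h (2.41 ± 0.057). At the first steps, the glucose transporter gene Slc2a3 fell from 1876 to 333 CPM while Slc2a1 rose from 144 to 461 CPM, and the hexokinase gene Hk1, which overlaps Hk1os, fell from 246 to 45.2 CPM and Hk2 by less, from 397 to 348 CPM (-0.19 ± 0.04). The summed CPM of the list was 8587 and 8636 at 0 h and 11388 and 10907 at 40 h. Of 78 nuclear subunits of oxidative phosphorylation, 42 (53.8%, against 34.7% of all genes) were called lower and 5 higher in the plain test. Beyond 2-fold 3 fell (3.85%, a smaller share than the 10.2% of all genes; Cox7a1 from 26.7 to 3.33 CPM, Cox6b1 from 309 to 139.8 CPM and Cox6b2 from 62.1 to 26.7 CPM) and the median was -0.16. The riser, Cox6a2, had 0 and 0 counts at 0 h and 2 and 6 counts at 40 h and overlaps Itgad. It lost its call without replicate 2 at 0 h or replicate 2 at 40 h (adjusted p = 0.061 and 0.11 in edgeR). All 8 tested mitochondrially encoded genes were called lower, as were 34.7% of all genes, with a median of -0.61. The share of mitochondrially encoded genes in all counts was 3.14% and 3.16% at 0 h and 2.20% and 2.15% at 40 h. In the citric acid cycle, Idh2 was the single one of 27 members beyond 2-fold, with 297 and 303 CPM at 0 h and 101 and 102 CPM at 40 h (-1.56 ± 0.048). Fatty acid oxidation had 6 fallers beyond 2-fold and 0 risers of 25. Cpt1a, the carnitine transferase that admits fatty acids to mitochondria, had 301 and 301 CPM at 0 h and 13.5 and 14.9 CPM at 40 h (-4.40 ± 0.075, adjusted p = 9.3e-86). Slc25a20, the carnitine carrier, fell from 111 to 23.05 CPM and Acox3, a peroxisomal oxidase, from 73.7 to 6.01 CPM.

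**Figure D4:**
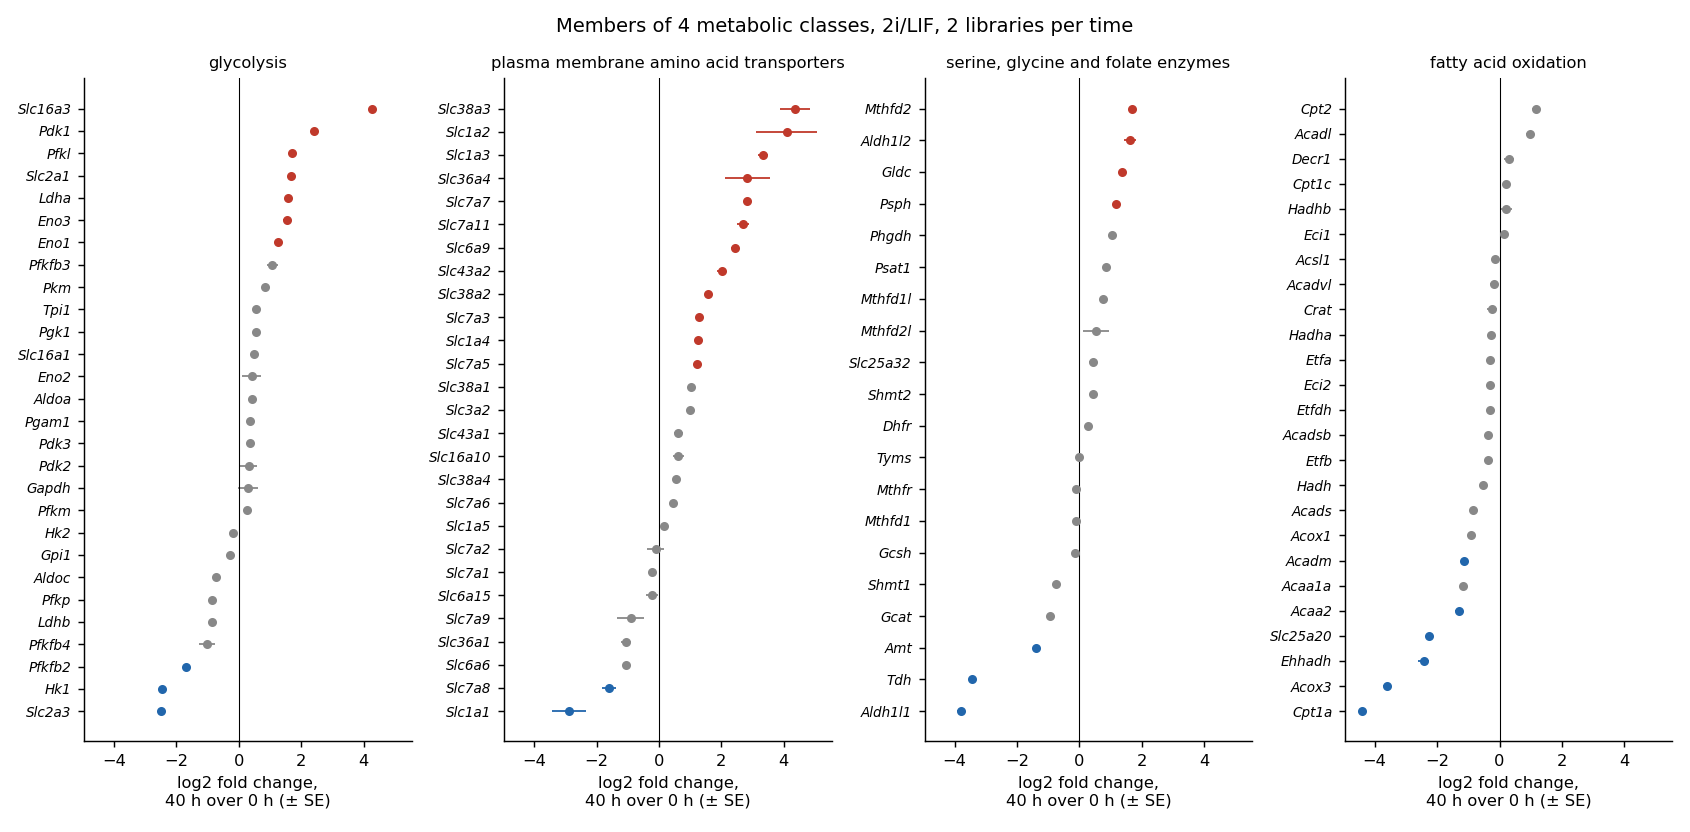
Log2 fold change, 40 h over 0 h, of each tested member of 4 metabolic classes, with bars of ± SE as defined in the text. Red and blue mark genes higher or lower beyond 2-fold. Slc16a3 leads glycolysis at 4.27 and Cpt1a is the lowest of fatty acid oxidation at -4.40.

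Many amino acid uptake genes and regulators of the amino acid response rose. Of 27 plasma membrane amino acid transporters tested, 12 (44.4%, against 11.0% of all genes) rose and 2 fell beyond 2-fold. They had a median of 0.99 (0.94 to 0.998 over pairs of libraries). The median was 0.24 at 12 h and 0.56 at 24 h, times that share the 0 h libraries with the 40 h comparison. Slc38a2, a sodium-coupled transporter of neutral amino acids, had 267 and 272 CPM at 0 h and 818 and 785 CPM at 40 h (1.57 ± 0.038, adjusted p = 1.5e-69). Slc7a5, the large neutral amino acid exchanger, had 253 and 240.1 CPM at 0 h and 559 and 592 CPM at 40 h (1.22 ± 0.041). Slc7a7, an exchanger of cationic amino acids that overlaps Oxa1l, had 19.8 and 20.5 CPM at 0 h and 146 and 139.8 CPM at 40 h (2.82 ± 0.08). Slc7a11, the cystine-glutamate exchanger, rose from 4.04 to 26.3 CPM and the glycine transporter gene Slc6a9 from 10.2 to 56.2 CPM. The fallers were Slc7a8 (from 14.1 to 4.65 CPM) and Slc1a1 (from 3.39 to 0.470 CPM), and Slc1a5, a glutamine transporter, changed by 0.16 ± 0.048, a call that ended without replicate 2 at 40 h (adjusted p = 0.30 in edgeR). Of 19 amino acid response regulators, 7 rose and none fell beyond 2-fold (median 0.84). Atf4, the transcription factor of the response, had 292 and 283 CPM at 0 h and 512 and 518 CPM at 40 h (0.84 ± 0.039), called but not past 2-fold. Chac1, which degrades glutathione, had 8.79 and 11.2 CPM at 0 h and 110.0 and 118 CPM at 40 h (3.49 ± 0.11, adjusted p = 6.2e-59). Stc2, a secreted stanniocalcin, rose from 7.76 to 56.0 CPM and the pseudokinase gene Trib3 from 46.3 to 118 CPM. Asns, the asparagine synthetase gene and a textbook Atf4 target, went the other way, with 1269 and 1266 CPM at 0 h and 455 and 513 CPM at 40 h (-1.39 ± 0.038, adjusted p = 3.5e-60). Of 20 aminoacyl-tRNA synthetase genes 17 were called higher (85.0%, against 34.1% of all genes) by small amounts, none beyond 2-fold, and Qars, the glutaminyl-tRNA synthetase gene, fell from 466 to 219.8 CPM.

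Enzymes around serine, glycine and methionine also divided. Mthfd2, the mitochondrial folate dehydrogenase, had 115 and 106 CPM at 0 h and 347 and 361 CPM at 40 h (1.68 ± 0.048, adjusted p = 7.7e-62). Psph, the last enzyme of serine synthesis, rose from 51.1 to 116 CPM, and the glycine decarboxylase gene Gldc from 160.0 to 410.4 CPM; Psph overlaps Cct6a and Gldc a ribosomal protein pseudogene. Tdh, the threonine dehydrogenase that feeds one-carbon metabolism in mouse ES cells, had 841 and 831 CPM at 0 h and 80.3 and 72.0 CPM at 40 h (-3.45 ± 0.046, adjusted p = 1.5e-97). Aldh1l1, a cytosolic folate dehydrogenase, fell from 71.2 to 5.15 CPM. The glycine cleavage gene Amt fell from 142 to 54.2 CPM, opposite to its partner Gldc. Besides the lost genes Dmgdh, Bhmt and Bhmt2, Cbs fell from 121 to 28.7 CPM, while Odc1, the first enzyme of polyamine synthesis, rose from 243 to 659 CPM. Cholesterol synthesis genes were called higher in 21 of 25 (84.0%, against 34.1% of all genes), mostly by less than 2-fold (median 0.64). Risers beyond 2-fold included Lss (1.75 ± 0.051), Hsd17b7 (1.43 ± 0.11) and Pmvk (1.30 ± 0.087), and Ebp, a sterol isomerase, was the faller beyond 2-fold, with 96.7 and 89.8 CPM at 0 h and 19.04 and 17.8 CPM at 40 h (-2.33 ± 0.093).

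Genes of the lysosome fell together with regulators of autophagy. Of 45 lysosomal hydrolases and membrane proteins, 34 were called lower (75.6%, against 34.7% of all genes) and 6 higher (13.3%, against 34.1%). Beyond 2-fold 21 fell (46.7%, against 10.2% of all genes) and 1 rose. The median was -1.001 (-1.06 to -0.93 over pairs of libraries). Npc2, which exports cholesterol from lysosomes, had 536 and 543 CPM at 0 h and 128 and 117 CPM at 40 h (-2.14 ± 0.045, adjusted p = 6.0e-76). Grn (progranulin) had 333 and 329.6 CPM at 0 h and 62.4 and 58.3 CPM at 40 h (-2.45 ± 0.056). Ctsa, a protective hydrolase that overlaps Neurl2 and Pltp, fell from 285 to 53.3 CPM. The proteases Ctsb and Ctsc fell from 399.9 to 88.1 CPM and from 125 to 9.67 CPM. The member that rose beyond 2-fold was Laptm4b (35.5 and 34.8 CPM at 0 h and 79.3 and 82.3 CPM at 40 h). At earlier times the median of the list was -0.78 at 12 h and -0.93 at 24 h against the same 0 h libraries. Of 20 V-ATPase subunits, which acidify the lysosome, 14 were called lower (70.0%, against 34.7% of all genes) and 3 fell beyond 2-fold (10.2% of all genes did), with Atp6ap2 from 179.9 to 61.0 CPM. Autophagy genes had 10 fallers and 1 riser beyond 2-fold of 38. The kinase gene Ulk1 had 397 and 387 CPM at 0 h and 54.2 and 53.8 CPM at 40 h (-2.86 ± 0.054, adjusted p = 3.9e-81), while its paralog Ulk2 rose from 2.86 to 12.2 CPM. Of the MiT/TFE factors that drive lysosomal genes, Mitf had 78.2 and 73.8 CPM at 0 h and 2.13 and 1.09 CPM at 40 h (-5.53 ± 0.17). Tfeb fell from 45.6 to 7.21 CPM, and Tfe3 went up from 114 to 199.7 CPM (0.81 ± 0.052). Macropinocytosis and actin regulators, which serve bulk uptake, had 4 risers and 4 fallers beyond 2-fold of 44. Each share was 9.09%, beside 11.0% and 10.2% of all genes. In the plain test 24 were called lower (54.5%, against 34.7% of all genes) and 14 higher (31.8%, against 34.1%), with a median of -0.28. The Rac exchange factor gene Dock1, which overlaps Insyn2a, fell from 156 to 53.3 CPM and its partner gene Elmo1 rose from 41.1 to 96.2 CPM.

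Most classes of growth machinery and the cell cycle held few or no genes beyond 2-fold, though many members were called. None of the 85 cytosolic ribosomal protein, 77 mitochondrial ribosomal protein, 43 ribosome biogenesis, 30 DNA replication or 27 mitosis genes passed the 2-fold test. Ribosome biogenesis had 34 members higher (79.1%, against 34.1% of all genes) and 3 lower (median 0.30), with Ncl (nucleolin) from 2945 to 4494 CPM. G1 regulators had 4 risers and 0 fallers beyond 2-fold of 33, a share of risers (12.1%) near the 11.0% of all genes. Histone genes had 2 risers of 19 (10.5%), the steepest at 4.96. Translation initiation factors had 2 risers, the steepest at 4.14, and 2 fallers of 55 (3.64% each, beside 11.0% and 10.2% of all genes). Myc had 9.13 and 8.51 CPM at 0 h and 53.1 and 61.3 CPM at 40 h (2.69 ± 0.12, adjusted p = 3.6e-41). Mycn had 79.8 and 79.6 CPM at 0 h and 191 and 162 CPM at 40 h (1.15 ± 0.066). The CDK inhibitor gene Cdkn1c, which is imprinted, rose from 2.17 to 27.8 CPM, while Cdkn1a (p21), on the p53 target list, fell from 397 to 79.2 CPM.

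The cell surface and matrix were remodelled gene by gene. Of 83 ion channel genes tested, 32 rose and 10 fell beyond 2-fold, with a median of 0.90, or 0.57 with the 28 genes at the floor in 1 group placed at their bound. Among channel genes of at least 5 CPM on average over all libraries the median was -0.34. The calcium channel subunit genes Cacng7 (1.90 and 1.37 CPM at 0 h and 38.7 and 45.5 CPM at 40 h) and Cacna1b (reaching 15.5 CPM) were among the risers. Axon guidance genes had 16 risers and 16 fallers of 56, with families divided between both directions: the ephrin gene Efnb2 rose from 2.52 to 86.2 CPM and the semaphorin gene Sema6a from 2.36 to 87.9 CPM, while the receptor gene Epha4 fell from 139 to 6.42 CPM and netrin (Ntn1) from 142 to 6.90 CPM. Of 40 collagen, laminin and related matrix genes, 11 fell and 8 rose beyond 2-fold. The laminin gene Lama1 had 170.1 and 154 CPM at 0 h and 3.76 and 4.62 CPM at 40 h (-5.27 ± 0.12). Nidogen (Nid1) fell from 604 to 25.5 CPM and fibronectin (Fn1) from 2965 to 787 CPM, and Col18a1 rose from 92.7 to 604 CPM. At junctions, Gja1 (connexin 43) rose from 35.7 to 353 CPM, and Epcam rose from 100.4 to 288 CPM. Among actin genes, filamin C (Flnc) had 3.96 and 4.41 CPM at 0 h and 193 and 202 CPM at 40 h (5.55 ± 0.11, adjusted p = 4.2e-72). Zyxin (Zyx), which overlaps Epha1, rose from 7.26 to 75.2 CPM, and Myl9, a myosin light chain, went from no count to 8.25 CPM, at least 17.0-fold by the floor.

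The 40 h change was set beside that after exit from serum/LIF+2i, where the medium after exit differed as well, so that the starting medium and the exit medium cannot be told apart. The test of the difference of the 2 changes called 122 genes beyond 2-fold (0.854% of those tested), 92 (0.644%) more positive and 30 (0.210%) more negative in the serum medium. Without the 2-fold margin it called 3940 genes (27.6%). The count beyond 2-fold was 76 without replicate 1 at 40 h in 2i/LIF and 36 by DESeq2. Otx2 differed most among the named genes that rose in both: its rise was 6.75 from 2i/LIF and 2.43 from serum/LIF+2i (-4.32 ± 0.54, adjusted p of the difference = 6.7e-11), where the libraries held 1.62 and 2.20 CPM at 0 h and 11.3 and 9.29 CPM at 40 h. Ldha rose by 1.59 here and changed by -0.34 there (-1.92 ± 0.051, adjusted p of the difference = 6.3e-62). Dazl fell by 1.94 here and changed by 0.90 there (2.83 ± 0.17, adjusted p of the difference = 3.7e-29). Cdx1 had 54.7 and 46.7 CPM at 0 h and 0.948 and 1.26 CPM at 40 h in the serum medium. For glycolysis genes the list median was 0.38 on exit from 2i/LIF, beside -0.30 from the serum medium. For Hox genes it was 1.04 from the serum medium, beside the value given above. These medians are given side by side and were not compared by a test.

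**Figure D5:**
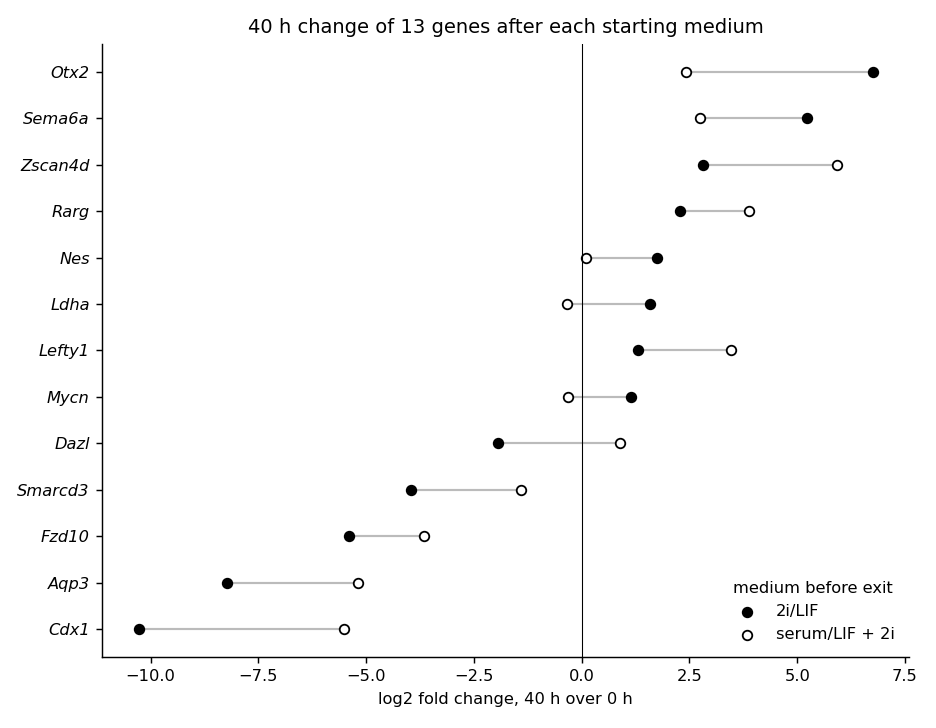
Log2 fold change, 40 h over 0 h, of the 13 genes named by rule whose change differed beyond 2-fold between the 2 exits, which differed in starting and exit medium. Filled circles are exit from 2i/LIF and open circles exit from serum/LIF+2i; Otx2, at the top, rose by 6.75 and 2.43.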

How the data were processed

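RNA of mouse ES cells was sequenced in 16 libraries, stranded and poly(A)-selected (TruSeq Stranded mRNA, per the labels' protocols), 2 for each of 8 groups. The deposited values are raw counts per gene; fastp, STAR, featureCounts and the build mm10 are named in the submitters' processing notes, without versions or the strand setting. From these counts edgeR 4.0.16 (R 4.3.3) fitted a quasi-likelihood model to all 16 libraries, with 1 term per group, TMM scaling and genes kept by filterByExpr (minimum count 10, minimum total 15). Calls used a Benjamini-Hochberg adjusted p under 0.05, and a 2-fold margin used glmTreat. The common coefficient of variation between replicates was 3.19%, and each group's 2 libraries held 5931381 to 7858428 counts in this comparison. CPM and RPKM were computed from the same counts with TMM library sizes. DESeq2 1.42.0, other scalings and filters, fewer libraries and leaving out each library were the alternatives. The fit was tested on simulated data. The gene classes were lists and name patterns, and these lists, the comparison and the rule for naming genes were chosen with earlier results of these data known. Named were the 12 steepest rises and falls with the higher group at 20 CPM or more and the lower one above 3 counts in at least 1 library, the 8 largest gains and losses in RPKM, the 8 gained and 8 lost genes with the highest RPKM, and up to 3 risers and 3 fallers of each class with the smallest adjusted p. A further 45 genes were named after their values were seen. Some genes that the rule selects are not reported here. Genes that overlap another counted gene are uncertain, because strand use in counting is not given in the sources used here; beside those said in the text this holds for Acox3, Ctsb, Dmgdh, Dnmt3l, Eras, Foxp1, H19, Lss, Ncl, Slc16a3, Slc6a9, Smarcd3, Sox2, Tet3 and Zbtb38. Promoters came from RefSeq (GRCm38.p6), matched by Entrez gene identifier. The replicate numbers were not treated as pairs: same-numbered libraries did not deviate together (correlations of -0.015 to 0.020).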

Additional observations from a re-analysis of the deposited data

Results flagged for a closer look

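Among the genes named by rule, 13 differed by more than 2-fold between the 2 exits in their 40 h change. This was edgeR's test of the difference itself, and the 45 genes named after their values were seen were left out. Starting medium and exit medium both differed and cannot be told apart. Each value below is the log2 change after exit from serum/LIF+2i minus that after exit from 2i/LIF. More negative in the serum medium were Otx2 at -4.32, Sema6a at -2.47, Ldha at -1.92, Nes at -1.65 and Mycn at -1.47. In 2i/LIF these rose, and the 0 h mean of Otx2 there was 0.552 CPM, beside 1.91 CPM in the serum medium. More positive were Cdx1 at 4.76, Zscan4d at 3.12, Aqp3 at 3.04, Dazl at 2.83, Smarcd3 at 2.55, Lefty1 at 2.17, Fzd10 at 1.74 and Rarg at 1.60. Cdx1 and Aqp3 were nearly silent at 40 h in 2i/LIF, at 0.131 and 0.789 CPM. The value of Cdx1 is a fitted one that rests on 1 count in each of those libraries and is no bound. With 2 libraries in each group, no sample could be tested as lying apart from its group.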

How the results depend on the processing

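The counts of genes higher at 40 h and of genes lower at 40 h stayed within 1.5 times of 4875 and 4962 under every alternative run. Beyond 2-fold, genes of at least 5 CPM on average gave 829 higher and 964 lower, 66 gained, 51 lost and 74 differing between media, where the smaller number of genes tested sets part of the fall. DESeq2 gave 1008 higher beyond 2-fold and 36 differing between media; the cause was not tested. Stricter levels (under 0.5 and at least 10 CPM) gave 34 gained and 39 lost. Looser ones (under 2 and at least 5 CPM) gave 303 and 234. The rule for gained and lost genes is also looser when a library is left out, because only the other library of that time must then meet it. Higher gained and lost counts without a library were therefore largely built in, and they do not test the stability of 147 and 124. Leaving out each of the 4 libraries in turn, with the lone library assumed to vary like the other groups, gave 4402 to 4534 higher, 4555 to 4680 lower, 1345 to 1527 and 1326 to 1409 beyond 2-fold, 165 to 192 gained, 137 to 162 lost and 76 to 107 differing between media. With the replicate number as a block the counts were 4871 and 4963, 1560 and 1459 (genes higher beyond 2-fold at 40 h and genes lower beyond 2-fold at 40 h), 147 gained, 124 lost and 116 differing between media; the numbers do not pair these libraries. The change of Pou5f1, not called in any of these fits, was 0.0048 with DESeq2, 0.0048 with DESeq2 size factors in edgeR, 0.054 with library size only, 0.023 with genes of at least 5 CPM, 0.0063 in the fit of 4 libraries and 0.020 without ribosomal RNA genes. Of 4835 values for 377 named genes, 4820 kept direction and call, 9 lost the call and 6, all of Pou5f1, changed sign. Most of these genes were picked because the main fit of the same counts called them, so this stability was largely built in. In size, 78 of the values moved by more than 1.5-fold. Class medians changed sign in 19 of 82 classes. Of 1066 class medians over the alternatives, 237 moved by more than 0.5 times their range over pairs of libraries. A shift of more than 1.5-fold was seen in 20. Scaling moved the median of all genes by at most 0.068. At these depths genes of few counts limit the precision. For genes at the floor, only the folds given as "at least" are bounds, and their log2 fold changes are fitted values.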

Other observations

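Several further families were read from the same fit, and none of their counts was tested as a set. Of 25 apoptosis regulators, 6 rose and none fell beyond 2-fold. Among the risers, Hrk, which encodes a trigger of mitochondrial cell death, had 5 and 7 counts at 0 h and 125 and 140 counts at 40 h, Bcl2l11 (Bim) rose from 10.6 to 55.7 CPM and Bmf from 14.9 to 50.6 CPM. Bcl2l11 overlaps Acoxl. In the p53 target list the same comparison gave 2 risers and 3 fallers of 21 (9.52% and 14.3%, beside 11.0% and 10.2% of all genes). The risers were Bbc3 (Puma) from 11.0 to 30.1 CPM and Pmaip1 (Noxa) from 17.6 to 212 CPM, and the fallers were Cdkn1a, Phlda3 and Tigar. Among 13 hypoxia-response genes, Bnip3, a mitophagy receptor, rose from 9.16 to 60.3 CPM while Ndrg1 fell from 13.4 to 2.12 CPM. Glutathione and oxidant defence genes divided evenly, with 5 of 35 on each side and a median of 0.0025; Sod2, the mitochondrial superoxide dismutase, fell from 295 to 110.0 CPM.

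Large families had members that changed in both directions, some of them at shares below those of all genes. Of 249 solute carriers, 47 rose and 42 fell beyond 2-fold (18.9% and 16.9%), and 12 of the risers are the amino acid transporters described above. The KRAB-rich zinc finger family of 365 tested Zfp genes had 12 risers and 27 fallers, shares of 3.29% and 7.40%, beside 11.0% and 10.2% of all genes. Adhesion and orphan G protein-coupled receptors had 9 on each side of 40 tested (22.5% each). In Rab GTPases 3 rose and 6 fell of 58 (5.17% and 10.3%), at or below the shares of all genes or near them. Rab38, a Rab of lysosome-related organelles, fell from 32.1 to 2.99 CPM. Only 7 of 54 keratin genes were tested, with a median of -0.88. Beyond 2-fold 1 rose and 2 fell (14.3% and 28.6%, beside 11.0% and 10.2% of all genes). The riser was Krt18, a keratin of simple epithelia, from 1.67 to 19.5 CPM, and Krt7, at -1.93, was a faller.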
